A study of Arabidopsis thaliana with 14 samples.

Results

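Root hair genes were represented by 9 of the 18309 Arabidopsis thaliana genes that were tested. They were the transcription factor genes RHD6 (AT1G66470) and RSL4 (AT1G27740), the NADPH oxidase gene RHD2 (AT5G51060), and the wall and cell surface genes COBL9 (AT5G49270), LRX1 (AT1G12040), LRX2 (AT1G62440), PRP1 (AT1G54970), PRP3 (AT3G62680) and RHS13 (AT4G02270). A probe was assigned to a gene where its transcript accession belonged to that locus. PRP3 had 2 probes and each of the other genes had 1. All 9 genes passed the filter on low signals, which asked for a signal well above background on 3 or more arrays of any group. RHD6, RSL4, RHD2 and PRP1 passed it through wild-type arrays alone, so that a lower level in the transgenic seedlings was partly built into their selection.

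A root hair is a tubular outgrowth of a root epidermal cell that elongates at its tip. In Arabidopsis, the position of an epidermal cell over the cortex decides whether it becomes a hair cell, and the basic helix-loop-helix factor RHD6 then starts hair formation and turns on RSL4, whose amount sets how long a hair grows. At the growing tip RHD2 makes reactive oxygen species, while wall proteins, among them extensins and proline-rich proteins, are laid down in the new wall.

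Total RNA of whole seedlings was hybridised to 14 single-colour Agilent arrays. Seedlings were 7 days old when they were moved to treatment plates, where they stayed for 10 h. The 4 groups were transgenic 35S:YFP-AFL1 seedlings in the Col-0 background at low water potential (-1.2 MPa, imposed with polyethylene glycol in the agar, 3 arrays), the same genotype on control plates (3 arrays), wild-type Col-0 at low water potential (4 arrays) and wild-type Col-0 on control plates (4 arrays). The 35S promoter drives a transgene in most tissues, so that the AFL1 fusion was not restricted to root hair cells. The labels give neither the number of transgenic lines nor separate cultures for the replicates, so the p-values cover just the variation among these samples and that may be technical.

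Levels below are log2 of the probe's signal relative to the 75th percentile of the same array, so that 0 is a signal as high as that percentile and -1 is 1 doubling below it. Differences were tested with limma in 1 fit to all 14 arrays, with a call wherever the p adjusted by Benjamini and Hochberg over all genes tested was under 0.05. Where none of a group's arrays showed a probe well above background, the size of the difference has only a lower limit, written as at least a fold. That limit compares group means and takes no account of the spread among arrays. It needs every array of the other group to be well above background. Where some were not, the value is no strict limit.

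The AFL1 transcript itself ran from 3.82 to 4.08 in 35S:YFP-AFL1 at low water potential, from 2.08 to 2.51 in 35S:YFP-AFL1 control, from 3.33 to 4.08 in wild type at low water potential and from -0.55 to 0.66 in wild-type control, so that the genotypes overlapped at low water potential and not on control plates. All 35S:YFP-AFL1 arrays lay on slides 4 (control) and 5 (low water potential), each beside replicate 1 of wild type, and the other wild-type arrays lay on slides 1 to 3. These 2 wild-type arrays stood apart from their groups, with a mean correlation across genes of 0.949 at low water potential and 0.961 in control with the arrays of their own group, against 0.963 to 0.972 and 0.974 to 0.976 for the other wild-type arrays. Differences between genotypes are therefore also described without these 2 arrays and within a slide, for all 9 genes in the plot of genotype differences. Without these 2 arrays no slide held both genotypes, so that genotype and slide cannot be told apart in that setting. Markers of shoot cells, endodermis, root cortex and stele were measured, as a whole seedling would hold, whereas the 3 root cap markers SMB, BRN1 and BRN2 were well above background on 0 arrays and the trichome marker GL1 on 1.

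The first question was how root hair genes respond to low water potential in each genotype. In the fit to all arrays LRX1 and LRX2 were called lower and COBL9 and RHD2 higher in both genotypes. RHD6 was called higher in wild type, and PRP3 and RHS13 lower in 35S:YFP-AFL1. In 35S:YFP-AFL1, 2 of the 9 genes rose and 4 fell, where 30.0% of all genes tested rose and 33.3% fell. In wild type 3 rose and 2 fell, where 30.7% of all genes rose and 33.4% fell. These shares lie near those of the whole array, on which 63.3% of genes in 35S:YFP-AFL1 and 64.1% in wild type were called in either direction. The median log2 change of the 9 genes was -0.49 in 35S:YFP-AFL1 and 0.15 in wild type, against -0.04 and -0.03 over all genes. Both medians are the value of PRP1, which was not well above background on any transgenic array, so that the size of -0.49 was not measured. The treatments did not overlap for 6 of the 9 genes in 35S:YFP-AFL1 and for 4 in wild type, where 76.5% and 53.3% of all genes did not, and the order of RHD2 in 35S:YFP-AFL1 was not measured. With the slide as a block 2 of the 9 were called in each genotype, LRX1 and RHS13 in 35S:YFP-AFL1 and LRX1 and LRX2 in wild type, where 35.9% and 47.6% of all genes were. In whole seedlings, fewer hair cells and less RNA per hair cell cannot be told apart.

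**Figure D1:**
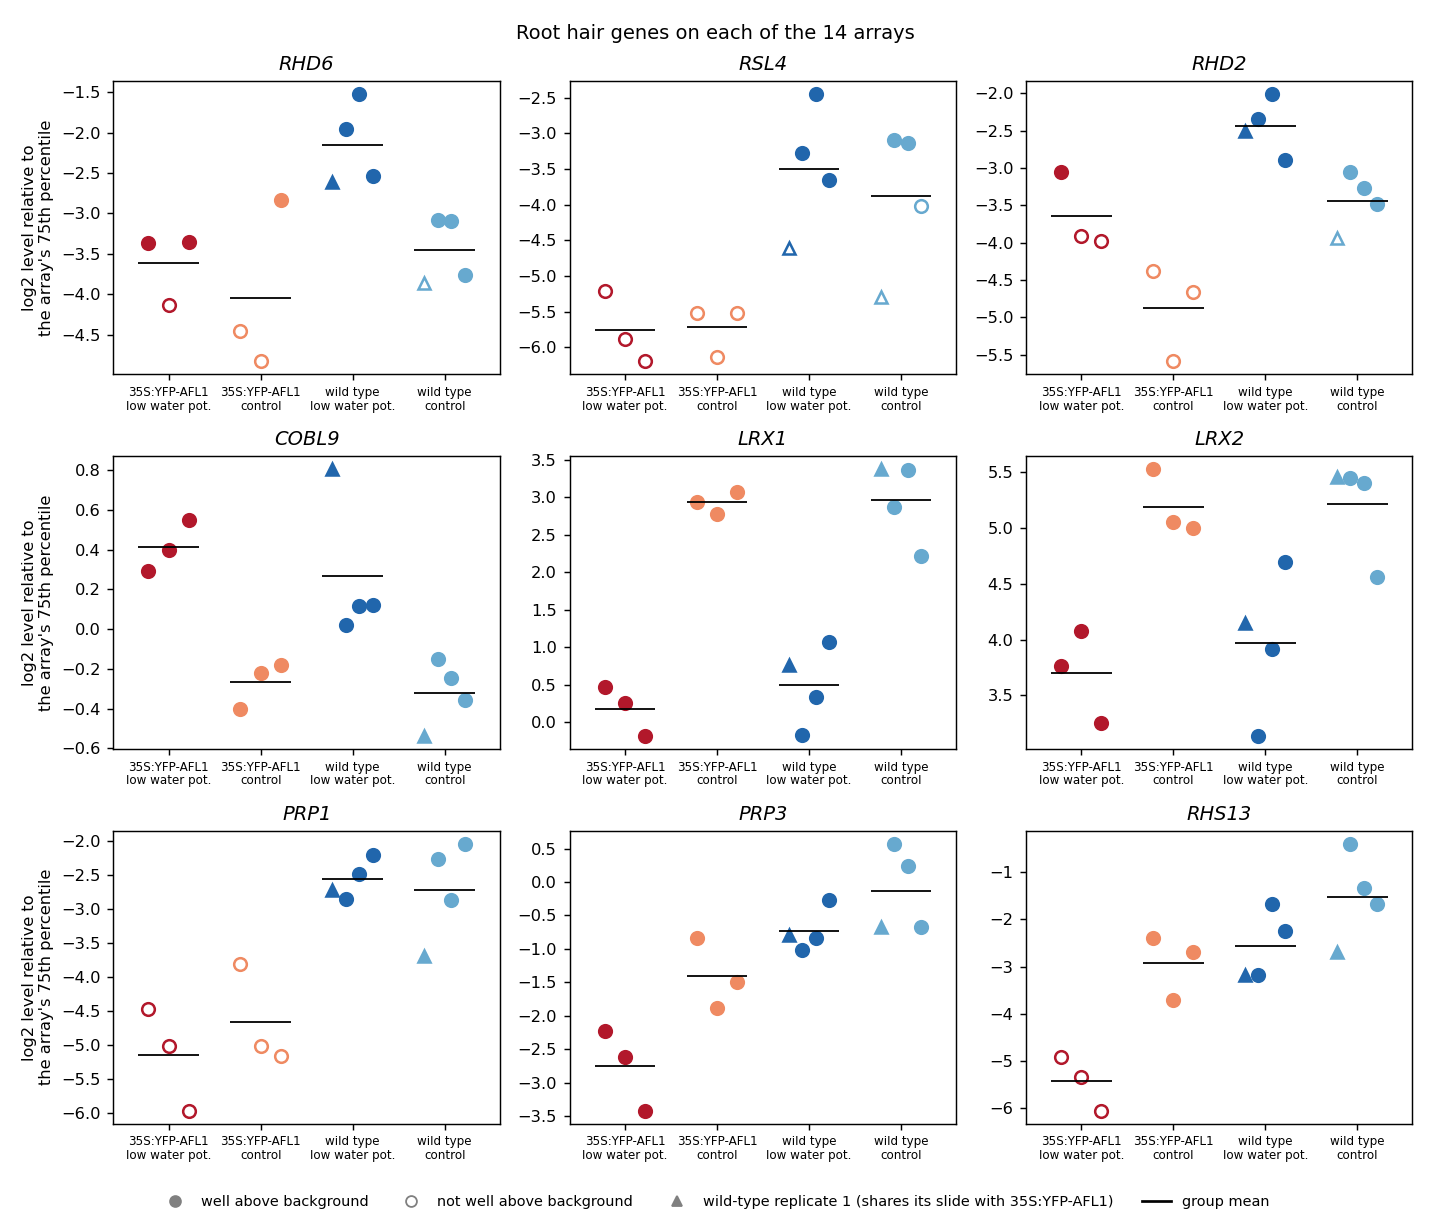
Level of each root hair gene on every array (log2 of the signal relative to the array's 75th percentile), by genotype and treatment, with the group mean as a line. Open symbols are not well above background and triangles are wild-type replicate 1. LRX1 separates by treatment in both genotypes, and PRP3 lies lower in 35S:YFP-AFL1 than in wild type of the same treatment, with all its arrays above background. Open symbols of both genotypes, as for RSL4 and for RHD2 in control, have no measured order.

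Among the transcription factors, RHD6 had levels of -3.37, -4.14 and -3.35 in 35S:YFP-AFL1 at low water potential, against -4.46, -4.82 and -2.84 in 35S:YFP-AFL1 control. In wild type RHD6 had -2.61, -1.95, -1.53 and -2.54 at low water potential, against -3.86, -3.08, -3.10 and -3.76 in control. Every stressed wild-type array was above every wild-type control array, while the transgenic groups overlapped because of control replicate 3. RHD6 rose by 1.29 ± 0.40 on the log2 scale in wild type (SE, n = 4 and 4, limma adjusted p = 0.0118), and its value in 35S:YFP-AFL1 was 0.42 ± 0.46 (SE, n = 3 and 3, limma adjusted p = 0.44). Control replicate 3 was the only transgenic control array on which RHD6 was well above background, and without it the limma adjusted p was 0.0309. On slide 2, which held 1 wild-type array of each treatment, the RHD6 difference was 1.81, and with slide as a block its limma adjusted p was 0.113.

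RSL4, the growth regulator downstream of RHD6, was dim. It stood at -5.21, -5.88 and -6.19 in 35S:YFP-AFL1 at low water potential, against -5.52, -6.14 and -5.52 in 35S:YFP-AFL1 control, none of them well above background. In wild type it stood at -4.61, -3.28, -2.45 and -3.66 at low water potential, against -5.29, -3.09, -3.13 and -4.02 in control, and 3 and 2 of these arrays were well above background. Replicate 1 was the lowest wild-type array for RSL4 in both treatments, and the one closest to the transgenic arrays. The treatments overlapped in both genotypes. The stress value of RSL4 was 0.38 ± 0.50 in wild type (SE, limma adjusted p = 0.523), with a 95% interval from -0.70 to 1.47 that leaves room for a change of either sign.

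RHD2, which encodes the NADPH oxidase of the hair tip, had -3.06, -3.91 and -3.98 in 35S:YFP-AFL1 at low water potential, against -4.38, -5.58 and -4.66 in 35S:YFP-AFL1 control. Its levels in wild type were -2.51, -2.35, -2.02 and -2.89 at low water potential, against -3.94, -3.05, -3.27 and -3.49 in control. The treatments did not overlap in wild type, whereas in 35S:YFP-AFL1 only stressed replicate 1 was well above background, so that the other 5 arrays have no measured order. RHD2 rose by 0.998 ± 0.30 in wild type (SE, limma adjusted p = 0.00997), which is a doubling of the signal. In 35S:YFP-AFL1 it was called higher at low water potential (limma adjusted p = 0.00714). With 1 of 3 stressed and 0 of 3 control arrays well above background, neither the size of that difference nor a lower limit was measured. With slide as a block the values were 0.94 in 35S:YFP-AFL1 and 1.14 in wild type, with limma adjusted p of 0.492 and 0.173.

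COBL9, a glycosylphosphatidylinositol-anchored protein needed for hair elongation, had 0.29, 0.40 and 0.55 in 35S:YFP-AFL1 at low water potential, against -0.40, -0.22 and -0.18 in 35S:YFP-AFL1 control. In wild type the levels of COBL9 were 0.80, 0.02, 0.11 and 0.12 at low water potential, against -0.54, -0.15, -0.24 and -0.36 in control. All stressed arrays of COBL9 were above all control arrays of their genotype, and wild-type replicate 1 was both the highest stressed and the lowest control array. COBL9 rose by 0.68 ± 0.19 in 35S:YFP-AFL1 and by 0.59 ± 0.16 in wild type (SE, limma adjusted p = 0.00642 and 0.00652). Without both replicate 1 arrays the wild-type rise was 0.34 (limma adjusted p = 0.0175). Blocking on slide gave -0.28 in 35S:YFP-AFL1 and 0.38 in wild type, with limma adjusted p of 0.475 and 0.128. No slide held transgenic arrays of both treatments, so that the value of that fit for 35S:YFP-AFL1 rests on 4 wild-type arrays, those of slides 2, 4 and 5.

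LRX1 had the largest measured response among the 9 genes in wild type. LRX1 and LRX2 encode leucine-rich repeat extensins, proteins of the hair wall that act together in hair shape. LRX1 had 0.47, 0.26 and -0.18 in 35S:YFP-AFL1 at low water potential, against 2.94, 2.78 and 3.07 in 35S:YFP-AFL1 control. Its wild-type levels were 0.77, -0.17, 0.34 and 1.08 at low water potential, against 3.37, 2.88, 3.36 and 2.22 in control. The lowest control array of LRX1 was more than 1 log2 unit above the highest stressed array. The gene fell by 2.75 ± 0.33 in 35S:YFP-AFL1 and by 2.45 ± 0.29 in wild type (SE, limma adjusted p = 9.15e-06 and 6.58e-06), that is 6.71-fold and 5.48-fold lower. With the slide as a block LRX1 was at -2.53 in 35S:YFP-AFL1 and -2.39 in wild type, with limma adjusted p of 0.0127 and 0.00135. The wild-type value of that fit is the difference between 1 array of each treatment on slide 2, the transgenic value adds to it the comparisons with 1 wild-type array on slides 4 and 5, and the spread comes from other arrays of the fit.

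LRX2 had 3.77, 4.08 and 3.25 in 35S:YFP-AFL1 at low water potential, against 5.53, 5.05 and 5.0 in 35S:YFP-AFL1 control. Wild-type levels of LRX2 were 4.15, 3.14, 3.91 and 4.69 at low water potential, against 5.46, 5.44, 5.40 and 4.56 in control. Replicate 4 of the wild-type control lay below the other 3 and below the highest stressed array, so that the wild-type groups overlapped. LRX2 fell by 1.49 ± 0.36 in 35S:YFP-AFL1 and by 1.25 ± 0.31 in wild type (SE, limma adjusted p = 0.00259 and 0.00328). In the fit that blocks on slide it fell by 1.43 in wild type (limma adjusted p = 0.0292) and its value in 35S:YFP-AFL1 was -1.61 (limma adjusted p = 0.103).

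PRP1 and PRP3 encode proline-rich wall proteins of the hair. PRP3 had -2.22, -2.62 and -3.42 in 35S:YFP-AFL1 at low water potential, against -0.84, -1.89 and -1.49 in 35S:YFP-AFL1 control. In wild type PRP3 had -0.79, -1.01, -0.84 and -0.27 at low water potential, against -0.67, 0.57, 0.24 and -0.67 in control. The transgenic groups of PRP3 did not overlap and the wild-type groups did. PRP3 fell by 1.34 ± 0.39 in 35S:YFP-AFL1 (SE, limma adjusted p = 0.00873), and its wild-type value was -0.59 ± 0.34 (limma adjusted p = 0.142). The call in 35S:YFP-AFL1 rests on 1 probe and on arrays of different slides. A dimmer second probe of PRP3 was well above background on 1 of 3 stressed and 0 of 3 control arrays of 35S:YFP-AFL1 and gave -0.61 ± 0.50 in wild type (SE), the mean of both probes gave -0.54 in 35S:YFP-AFL1 (limma adjusted p = 0.263), and with the slide as a block the limma adjusted p was 0.22.

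PRP1 had -4.47, -5.02 and -5.96 in 35S:YFP-AFL1 at low water potential, against -3.81, -5.01 and -5.17 in 35S:YFP-AFL1 control, and was not well above background on any of these arrays. Wild-type levels of PRP1 were -2.72, -2.85, -2.48 and -2.20 at low water potential, against -3.69, -2.26, -2.87 and -2.04 in control. The wild-type treatments overlapped, and the value of 0.15 ± 0.41 (SE, limma adjusted p = 0.755) came with a 95% interval from -0.72 to 1.03.

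RHS13, a gene found by its root hair-specific expression, had -4.92, -5.33 and -6.05 in 35S:YFP-AFL1 at low water potential, against -2.39, -3.71 and -2.70 in 35S:YFP-AFL1 control. In wild type RHS13 had -3.18, -3.18, -1.68 and -2.24 at low water potential, against -2.70, -0.41, -1.33 and -1.68 in control. The signal of RHS13 was not well above background on any stressed transgenic array and was above it on all other arrays. RHS13 was at least 1.98-fold lower at low water potential in 35S:YFP-AFL1 (limma adjusted p = 0.00162, and 0.0336 in the fit that blocks on slide). The wild-type value was -1.04 ± 0.49 (SE, limma adjusted p = 0.0763), and without wild-type control replicate 1 it was -1.43 with a limma adjusted p of 0.0156.

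**Figure D2:**
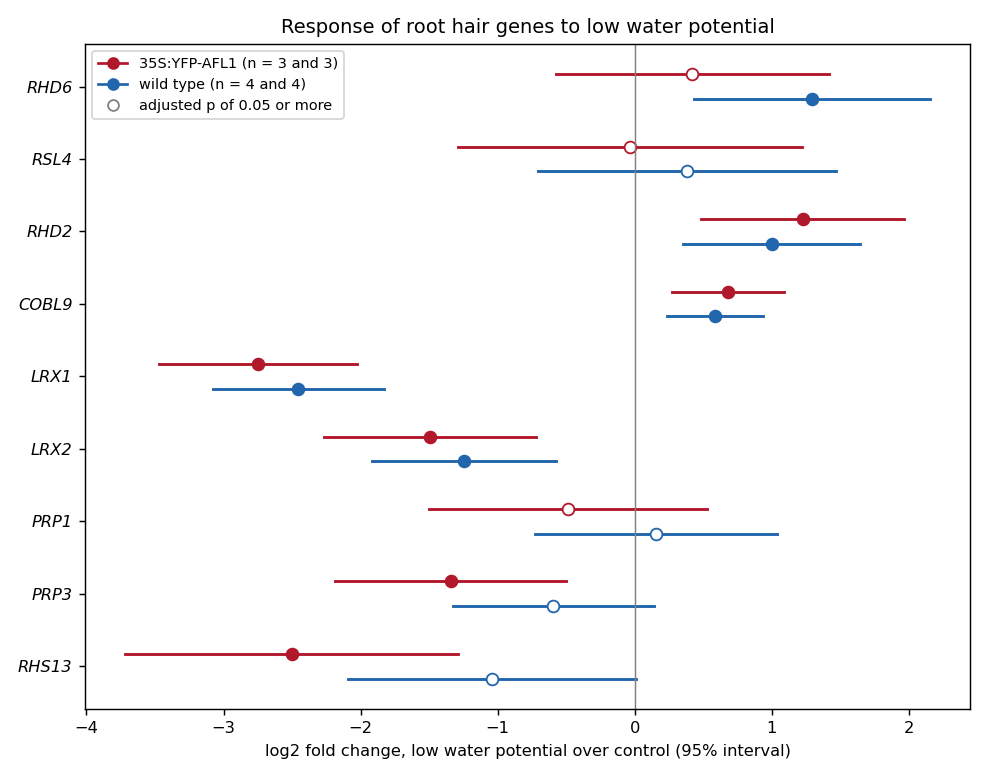
Log2 fold change of each root hair gene at low water potential over control, with its 95% interval, in 35S:YFP-AFL1 and wild type. Filled points have a limma adjusted p under 0.05. Points of PRP1, RSL4, RHD2 and RHS13 in 35S:YFP-AFL1 are fitted values that involve groups not above background, so that their sizes are not measured. LRX1 and LRX2 lie below 0 and COBL9 and RHD2 above 0 in both genotypes.

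The response itself was compared between genotypes with the interaction term of the same fit. None of the 9 genes was called, where 0.00% of all genes tested were called and 1781 genes had an unadjusted p under 0.05. The difference of the responses was -0.87 ± 0.61 for RHD6 (SE, limma adjusted p = 0.666) and -0.75 ± 0.52 for PRP3 (limma adjusted p = 0.658). For RHS13, which was not well above background in stressed 35S:YFP-AFL1, its size was not measured (limma adjusted p = 0.542), and the same holds for PRP1, RSL4 and RHD2, which were not well above background in one or both transgenic groups. LRX1 and LRX2, with -0.29 and -0.25, and COBL9, with 0.10, had 95% intervals from -1.25 to 0.66, from -1.27 to 0.78 and from -0.44 to 0.63. A call in one genotype alone, as for RHD6, PRP3 and RHS13, was therefore not shown to differ from the other genotype.

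The second question was whether 35S:YFP-AFL1 seedlings differ from wild type in these genes within a treatment. At low water potential PRP1, PRP3 and RHS13 were lower in 35S:YFP-AFL1, the 2 regulators RHD6 and RSL4 and the oxidase gene RHD2 had values below wild type that missed the threshold, and COBL9, LRX1 and LRX2 had values between -0.32 and 0.15. Of the 9 genes 3 were called lower and 0 higher, where 1.68% of all genes tested were called lower and 0.464% higher. Since PRP1, RHD6, RSL4 and RHD2 entered the test through wild-type arrays alone, these counts and the medians that follow are a description and no evidence of a lower level. The 3 calls were lost with the slide as a random block (limma adjusted p from 0.0517 to 0.0685), in a fit to only the groups compared (0.102 for each), within scan day 2 (0.0747 for each) and without replicate 2 or 3 of 35S:YFP-AFL1 at low water potential (0.0632 to 0.112). On control plates 0 of the 9 were called, where 0.0218% of all genes were, and 2064 genes had an unadjusted p under 0.05. The median difference of the 9 genes was -1.47 at low water potential and -1.27 in control, against 0.00 and 0.02 over all genes, and 8 of the 9 were below 0 in each treatment.

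The groups did not overlap at low water potential for RHD6, RSL4, RHD2, PRP1, PRP3 and RHS13, that is for 6 of 9 genes, where 14.6% of all genes did not overlap. For RSL4 the lowest wild-type array and all 3 transgenic arrays were not well above background, so that their order was not measured, which leaves 5 genes. In control 4 of the 9 did not overlap, where 13.6% of all genes did not, and these were RSL4, RHD2, PRP1 and PRP3. The order of RSL4 and of RHD2 was not measured there for the same reason, which leaves PRP1 and PRP3. The shares over all genes were not limited to measured orders, and the limit set by the filter holds for these counts too.

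PRP1 was at least 2.56-fold lower in 35S:YFP-AFL1 than in wild type at low water potential, with mean levels of -5.15 and -2.56 (n = 3 and 4, limma adjusted p = 0.0139). In control PRP1 had means of -4.66 in 35S:YFP-AFL1 and -2.71 in wild type and was not called (limma adjusted p = 0.11). These means gave a lower limit of 2.18-fold. None of the 6 transgenic arrays and all 8 wild-type arrays were well above background. PRP1 thus passed the filter through wild-type arrays alone, so that its lower transgenic level was partly built into its selection.

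PRP3, which was well above background on all arrays, averaged -2.75 ± 0.61 in 35S:YFP-AFL1 and -0.73 ± 0.32 in wild type at low water potential (SD, n = 3 and 4). That is a difference of -2.03 ± 0.36 (SE, limma adjusted p = 0.0184), or 4.07-fold lower in 35S:YFP-AFL1. In control it averaged -1.41 ± 0.53 in 35S:YFP-AFL1 and -0.13 ± 0.63 in wild type, a difference of -1.27 ± 0.36 (SE, limma adjusted p = 0.198). The second PRP3 probe was well above background on 1 of 3 transgenic arrays and 3 of 4 wild-type arrays at low water potential and on 0 of 3 and 4 of 4 in control, so that it hardly measures the transgenic level. It was not called in either treatment, with -0.42 ± 0.54 at low water potential and -1.30 ± 0.54 in control (SE). With the mean of both probes the difference at low water potential was -1.23 with a limma adjusted p of 0.108.

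RHS13 was at least 2.54-fold lower in 35S:YFP-AFL1 at low water potential, with means of -5.43 and -2.57 (limma adjusted p = 0.0192). In control it averaged -2.93 ± 0.69 in 35S:YFP-AFL1 and -1.53 ± 0.95 in wild type (SD, n = 3 and 4), and the groups overlapped (difference -1.40 ± 0.52, limma adjusted p = 0.326).

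For RSL4 the mean level at low water potential was -5.76 in 35S:YFP-AFL1 and -3.50 in wild type, without a call (limma adjusted p = 0.0512). The gap to the detection limit was 1.33-fold, with 3 of 4 wild-type arrays well above background. In control the means were -5.72 in 35S:YFP-AFL1 and -3.88 in wild type, also without a call (limma adjusted p = 0.212). The gap there was 1.02-fold, with 2 of 4 wild-type arrays well above background. These values are no strict lower limits, and they are small because RSL4 was near the detection limit in wild type as well.

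RHD6 averaged -3.62 ± 0.45 in 35S:YFP-AFL1 and -2.15 ± 0.51 in wild type at low water potential (SD, n = 3 and 4), a difference of -1.47 ± 0.43 (SE, limma adjusted p = 0.0934). Its difference in control was -0.59 ± 0.43 (limma adjusted p = 0.633). RHD2 had mean levels of -3.65 in 35S:YFP-AFL1 and -2.44 in wild type at low water potential (limma adjusted p = 0.0699), but was well above background on only 1 of the 3 transgenic arrays, so that the size of the difference was hardly measured. In control RHD2 was not called (limma adjusted p = 0.109). Its gap to the detection limit was 1.39-fold there, which is no strict lower limit, as 3 of 4 wild-type arrays were well above background.

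COBL9, LRX1 and LRX2 were bright in both genotypes. Their differences at low water potential were 0.15 ± 0.18, -0.32 ± 0.31 and -0.27 ± 0.33 (SE, limma adjusted p = 0.678, 0.601 and 0.686). The direction for COBL9 turned with the arrays used. It was at -0.39 with the slide as a block, with a 95% interval from -0.74 to -0.05 (limma adjusted p = 0.264), and at 0.33 without the replicate 1 arrays of wild type (limma adjusted p = 0.0509). In control they were 0.05, -0.03 and -0.02, with 95% intervals from -0.33 to 0.43 for COBL9, from -0.70 to 0.65 for LRX1 and from -0.75 to 0.70 for LRX2.

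**Figure D3:**
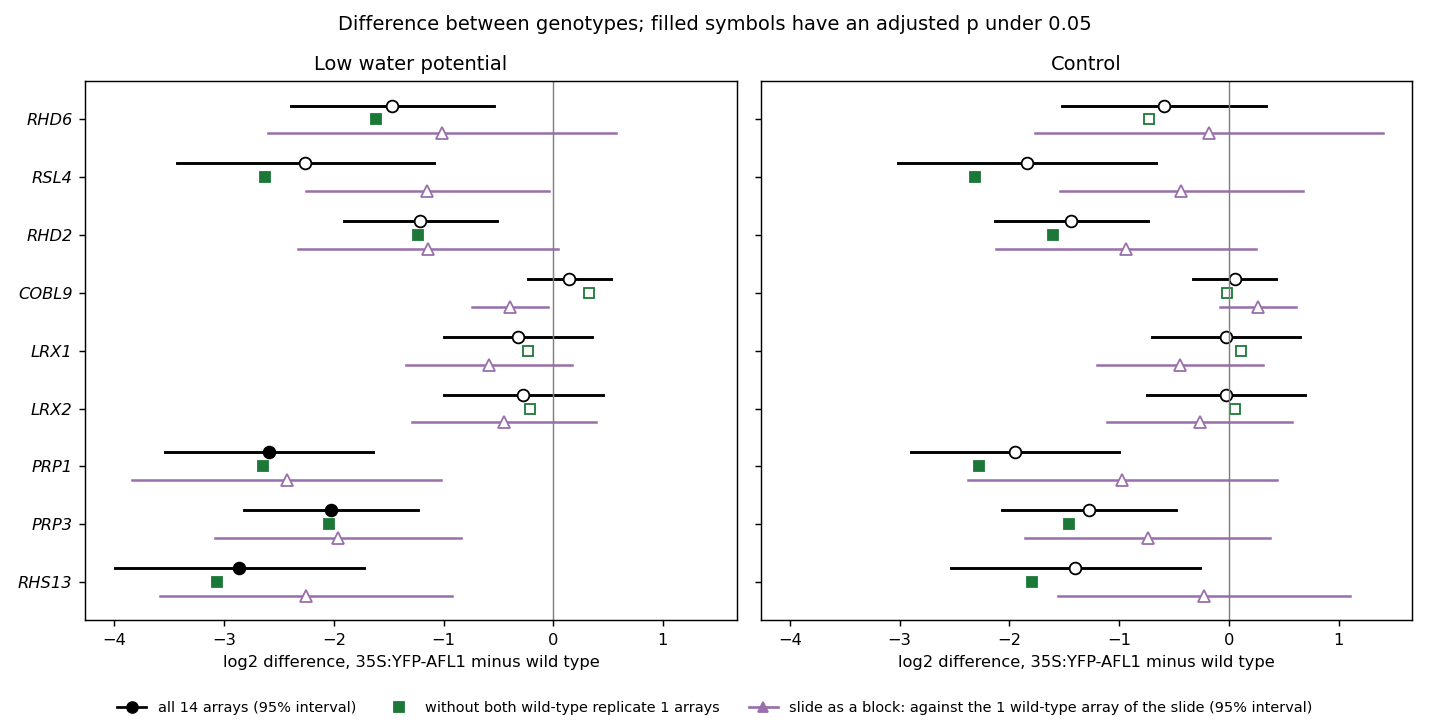
Log2 difference between 35S:YFP-AFL1 and wild type for each root hair gene, at low water potential (left) and in control (right). Circles use all arrays, squares leave out both wild-type replicate 1 arrays, and triangles compare arrays of 1 slide. Points of PRP1, RSL4, RHS13 (low water potential) and RHD2 (control) are fitted values against transgenic arrays not above background, so that their sizes are not measured, while PRP3 lies near -2 at low water potential in all 3 versions.

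The genotype difference depended on wild-type replicate 1. Without that array of both treatments, 6 genes (RHD6, RSL4, RHD2, PRP1, PRP3 and RHS13) were called lower in 35S:YFP-AFL1 at low water potential, and 5 (the same without RHD6) in control, among which only PRP3 and RHS13 had passed the filter in both genotypes. PRP3 was then at -2.05 at low water potential and -1.45 in control (limma adjusted p = 0.00421 and 0.0466). The calls over all genes also rose under that omission. At low water potential 12.9% were called lower and 9.77% higher, and in control 5.22% and 2.45%. No slide then held both genotypes, so that genotype and slide could not be told apart. In control the wild-type arrays left were all of scan day 1 and the transgenic arrays of scan day 2.

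Within a slide, where the 3 transgenic arrays were set against the single wild-type array beside them, 0 of the 9 genes were called in either treatment, and 0.197% of all genes at low water potential and 0.180% in control were called lower. On slide 5, at low water potential, PRP3 was at -1.96 relative to wild type (limma adjusted p = 0.113), RHD2 at -1.14 (0.352) and RHD6 at -1.01 (0.553), and all 3 transgenic arrays were below the wild-type array for each of them, with 3, 1 and 2 of the transgenic arrays well above background. For PRP1 and RHS13 the wild-type array of slide 5 was well above background and none of the 3 transgenic arrays was. On slide 4, in control, PRP3 was at -0.74 and RHS13 at -0.23, with 3 of 3 and 1 of 3 transgenic arrays below the wild-type array. PRP1 was well above background on the wild-type array of slide 4 and on none of its 3 transgenic arrays. RSL4 on both slides and RHD2 on slide 4 were not well above background on any array, so that they have no order there, and for RHD6 on slide 4 only 1 transgenic array was.

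Some markers of the endodermis, an inner root cell layer, also differed between genotypes. Of 7 endodermis genes 3 were lower in 35S:YFP-AFL1 at low water potential, namely CASP1 at -1.46, MYB36 at -1.22 and CASP5, which was at least 2.17-fold lower, where 1.68% of all genes were, while 2 had values above 0. CASP5 passed the filter through wild-type arrays alone, so that its lower level was partly built into its selection and the count of 3 is a description. In control 0 of the 7 were called, and within a slide 0 in either treatment. Without the replicate 1 arrays of wild type, 12.9% of all genes were lower and 9.77% higher at low water potential, and 5.22% were lower in control. CASP1 was then at -1.64 and MYB36 at -1.32 at low water potential. Of the 7 endodermis genes 4 were then lower and 1 higher at low water potential, and 2 were lower in control. Their summed level, in multiples of the 75th percentile, ran from 2.71 to 3.25 in 35S:YFP-AFL1 and from 2.41 to 3.87 in wild type at low water potential, and from 1.67 to 2.31 in 35S:YFP-AFL1 and from 3.10 to 3.93 in wild type in control. No marker of shoot (6 genes), cortex (2 genes) or stele (3 genes) was called between genotypes in either treatment in the fit to all arrays, whereas without the replicate 1 arrays 3 shoot markers and 1 cortex marker were called at low water potential and 1 stele marker in control. Under that omission 22.7% of all genes were called at low water potential and 7.67% in control. The part of cell composition in the root hair differences was not tested.

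Under stress the cortex markers CO2 and PEP fell in both genotypes, with log2 changes of -3.43 and -6.10 in 35S:YFP-AFL1 and -3.67 and -5.40 in wild type. The summed cortex level ran from 0.272 to 0.52 at low water potential against 18.4 to 21.2 in control in 35S:YFP-AFL1, and from 0.269 to 0.693 against 15.8 to 20.9 in wild type. Over all genes 33.3% fell in 35S:YFP-AFL1 and 33.4% in wild type. Of the shoot markers 5 of 6 fell in each genotype. Once slide was a block, 1 stayed called in 35S:YFP-AFL1 and 3 in wild type, where 20.1% and 25.6% of all genes fell. The summed level of the shoot markers ran from 155 to 202 at low water potential against 369 to 430 in control in 35S:YFP-AFL1, and from 180 to 270 against 398 to 472 in wild type. The part of these shifts in the root hair responses was not tested.

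Of 7 further bHLH factors of root hairs, RSL1, RSL2, RSL3 and RSL5 did not pass the filter. LRL1, a factor that acts beside the RSL genes, rose by 2.18 in 35S:YFP-AFL1 and by 2.06 in wild type under stress (limma adjusted p = 2.92e-06 and 1.19e-06), while LRL2 and LRL3 were not called. LRL3, a target of RHD6, was at -1.60 in 35S:YFP-AFL1 relative to wild type in each treatment (limma adjusted p = 0.0726 and 0.174), with 1 of 3 transgenic arrays above background in each. Without the replicate 1 arrays of wild type LRL3 was called lower in both treatments (limma adjusted p = 0.0235 and 0.0325), and within a slide in neither. LRL3 passed the filter through wild-type arrays alone, so that a lower transgenic level was partly built into its selection.

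Of 26 other hair-specific and wall genes 13 were tested. Between genotypes 3 were lower in 35S:YFP-AFL1 at low water potential, where 1.68% of all genes were, namely the arabinogalactan protein gene AGP3, at least 2.48-fold, the peroxidase gene RHS19, at least 2.31-fold, and the hair expansin gene EXPA18, at least 1.30-fold (limma adjusted p = 0.0428, 0.0307 and 0.0119). None of these 3 was well above background on a transgenic array at low water potential. These 3 genes, EXPA7, EXPA17 and XTH12 passed the filter through wild-type arrays alone, so that a lower transgenic level was partly built into their selection. The list's median there was -0.55, against 0.00 over all genes. The count of 3 and this median are a description with the same limit as for the 9 genes. Within a slide 0 of the 13 were called, and without the replicate 1 arrays of wild type 5 were lower at low water potential and 3 in control. Under that omission 12.9% and 5.22% of all genes were lower. EXPA7, the close relative of EXPA18, was at -1.34 at low water potential and -1.38 in control without a call, with 1 of 3 transgenic arrays above background in each, and without the replicate 1 arrays it was called (limma adjusted p = 0.0341 and 0.0226). In the stress response 2 rose and 2 fell in 35S:YFP-AFL1, and 1 rose and 1 fell in wild type, fewer than the 63.3% and 64.1% of all genes called in these responses. RHS5 was at least 2.37-fold lower in 35S:YFP-AFL1 and at least 3.09-fold lower in wild type, and it kept both calls with the slide as a block (limma adjusted p = 0.00176 and 1e-04). The calls of RHS19, RHS2 and RHS14 in 35S:YFP-AFL1, the last 2 at 1.103 and 0.39, and of EXPA17 in wild type, at 2.90, were lost with that block (limma adjusted p = 0.132, 0.394, 0.636 and 0.738).

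Of 21 genes of the tip growth machinery 13 were tested. COW1, a phosphatidylinositol transfer protein needed for hair elongation, was at -1.87 in 35S:YFP-AFL1 relative to wild type at low water potential (limma adjusted p = 0.0117) with 1 of 3 transgenic arrays above background. It was the only gene of this list called between genotypes in the fit to all arrays, with 0 called within a slide (COW1 limma adjusted p = 0.112). Without the replicate 1 arrays of wild type COW1 was at -2.04 (limma adjusted p = 0.000216), and 3 genes were lower and 1 higher at low water potential and 2 lower in control. Under that omission 12.9% of all genes were lower and 9.77% higher at low water potential, and 5.22% were lower in control. In the stress response 2 rose and 6 fell in 35S:YFP-AFL1, where 30.0% of all genes rose and 33.3% fell, and 2 rose and 4 fell in wild type, where 30.7% rose and 33.4% fell. Blocking on slide left 0 higher and 2 lower in 35S:YFP-AFL1, where 15.9% of all genes rose and 20.1% fell. It left 1 higher and 3 lower in wild type, where 22.0% of all genes rose and 25.6% fell. The small GTPase gene ROP6 fell by 1.24 on the log2 scale in both, ROP2, whose product marks the site of hair outgrowth, fell, with -0.57 in 35S:YFP-AFL1 and -0.88 in wild type, and the phosphoinositide phosphatase gene RHD4 rose by 0.94 and 0.61. ROP6 kept its call in both genotypes with that block, ROP2 in wild type alone (limma adjusted p = 0.082 in 35S:YFP-AFL1), and RHD4 in neither (0.121 and 0.0786). COW1 fell in 35S:YFP-AFL1, with -1.55. The receptor kinase gene ERU was also called lower there, with 0 of 3 stressed and 2 of 3 control arrays above background. For both genes the call was lost with the slide as a block (limma adjusted p = 0.0795 and 0.571). Their wild-type values were -0.15 and -0.18.

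Upstream of RSL4, 7 regulators were tested and gave the same counts in both genotypes, 1 higher and 4 lower under stress. Over all genes 30.0% rose and 33.3% fell in 35S:YFP-AFL1, and 30.7% rose and 33.4% fell in wild type. The trihelix repressor gene GTL1 fell, with -3.01 in 35S:YFP-AFL1 and -2.97 in wild type, and the auxin influx carrier gene AUX1 changed by -2.71 and -2.36. DF1, a relative of GTL1, fell, with -1.34 and -0.74, and ZFP5, a zinc finger factor that promotes hairs, was at least 1.49-fold higher in 35S:YFP-AFL1 and at least 2.96-fold higher in wild type. The counts of the 7 regulators were the same with the slide as a block. Over all genes 15.9% then rose and 20.1% fell in 35S:YFP-AFL1, and 22.0% rose and 25.6% fell in wild type. None of these 7 was called between genotypes in the fit to all arrays or with that block, and without the replicate 1 arrays of wild type 1 was lower at low water potential. Under that omission 12.9% of all genes were lower there.

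The relatives of the 9 genes varied in their response. Of 9 other LRX family genes 7 fell and 1 rose in both genotypes, where 33.3% of all genes fell in 35S:YFP-AFL1 and 33.4% in wild type, with LRX3 at -4.31 in 35S:YFP-AFL1 and -3.55 in wild type and the pollen gene PEX4 at 4.38 and 3.02. LRX1 and LRX2 thus moved in the direction of most of their family, whose median was -1.98 in 35S:YFP-AFL1 and -2.13 in wild type. In the fit that blocks on slide 2 of the 9 relatives fell and 1 rose in 35S:YFP-AFL1, where 20.1% of all genes fell and 15.9% rose. In wild type 7 fell and 1 rose in that fit, where 25.6% of all genes fell and 22.0% rose. PRP2 fell, with -2.32 in 35S:YFP-AFL1 and -2.82 in wild type, as did PRP4, with -2.95 and -3.42, whereas PRP1 was not called in either genotype. Among 7 tested COBRA relatives of COBL9, COBL5 fell, with -3.27 in 35S:YFP-AFL1 and -3.92 in wild type, and COBL4 rose, with 2.24 and 2.40. Of 9 other NADPH oxidase genes 3 were tested, and RBOHE rose by 2.94 in 35S:YFP-AFL1 and 2.71 in wild type, RBOHF rose by 1.69 and 1.99 and RBOHD fell, with -2.76 and -1.74. None of these relatives was called between genotypes in the fit to all arrays or in the fit that blocks on slide, whereas without the replicate 1 arrays 1 NADPH oxidase gene, 1 COBRA gene, 3 LRX genes and 1 PRP gene were called at low water potential. Under that omission 22.7% of all genes were called there.

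**Figure D4:**
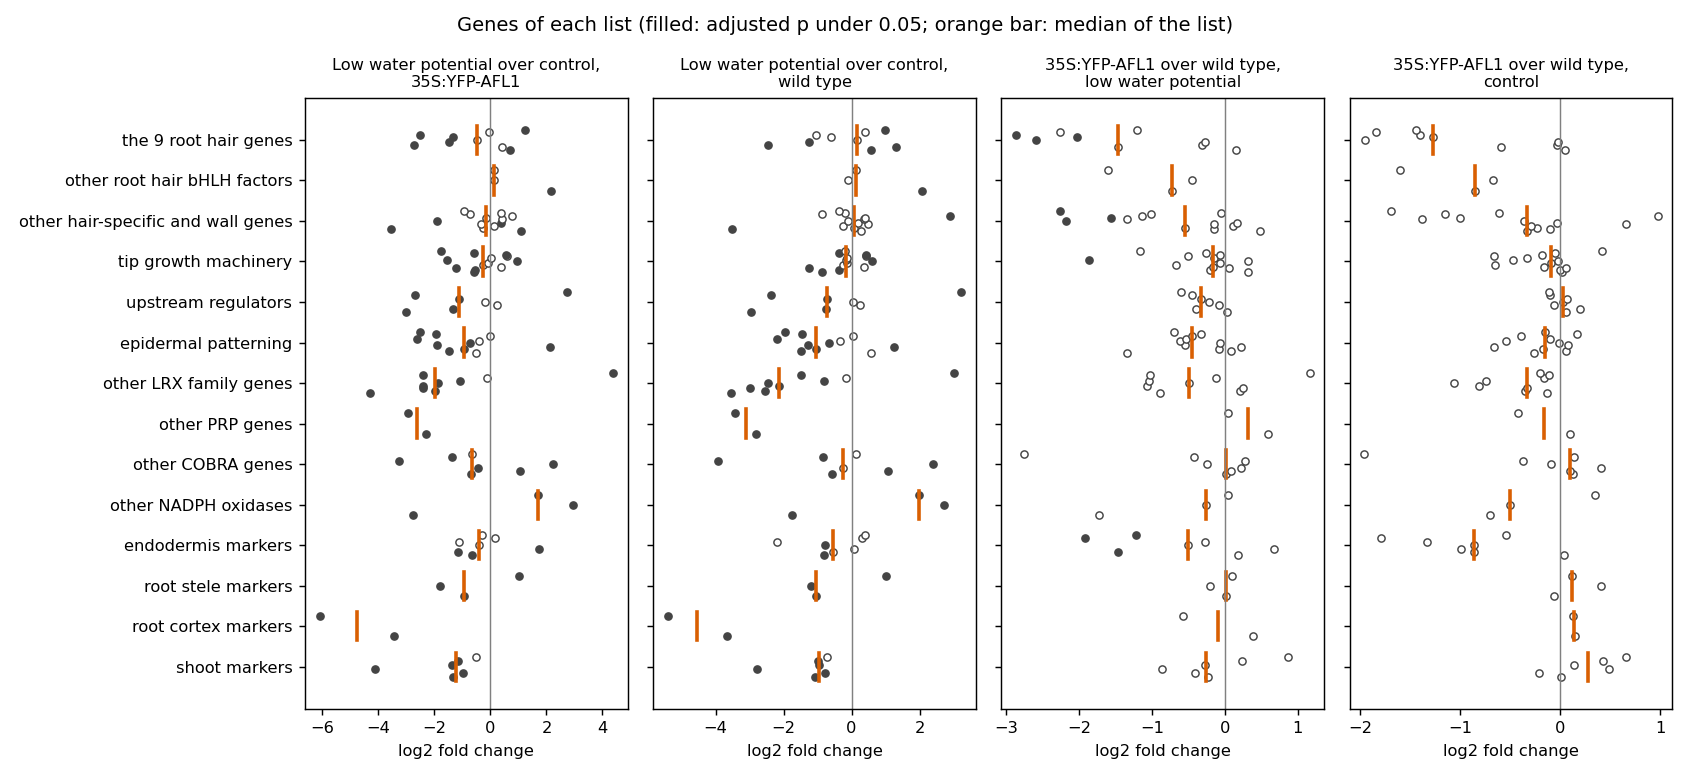
Log2 fold change of each tested gene of the root hair, family and marker lists in the 4 comparisons, with the list median as an orange bar. Filled points have a limma adjusted p under 0.05. The lists of LRX and PRP relatives lie mostly below 0 under stress, and between genotypes the filled points belong to the 9 genes, other hair-specific genes, tip growth and endodermis lists. Points of genes with a group not above background, such as AGP3, RHS19, EXPA18 and CASP5 between genotypes, are fitted values whose sizes are not measured.

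The 9 genes did not share 1 pattern. Across the 14 arrays, which fall into 2 treatments and share slides, Pearson correlations of the 36 pairs of genes ran from -0.80 for COBL9 with LRX1 to 0.95 for PRP3 with RHS13. LRX1 and LRX2 correlated at 0.95, and at 0.86 once the group means were removed, while RSL4 and RHS13 correlated at 0.74 and at 0.84. RHD6 and RHD2 correlated at 0.83 and at 0.59. Of the 14 arrays RSL4 was well above background on 5, RHD2 and PRP1 on 8, RHD6 on 10 and RHS13 on 11, so that the correlations of these genes rest in part on signals near background.

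The genes of the array whose levels were most like each of the 9 over the 14 arrays were described by the same measure, leaving out RSL4, which was measured on too few arrays. LRX1 was followed by AT4G11430 at 0.987, and on deviations from the group means AT4G11430 was also nearest to LRX2, at 0.976. PRP1 was followed by AT2G47540 at 0.956 and the hair expansin gene EXPA18 at 0.948, PRP3 by the cytochrome P450 gene CYP705A5 at 0.977, and RHS13 by AT4G11210 at 0.959 and the homeobox gene HB20 at 0.955. RHD2 was followed by AT4G26220 at 0.960, RHD6 by AT3G61270 at 0.911, COBL9 by AT4G27560 at 0.976 and LRX2 by AT5G28500 at 0.978.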

How the data were processed

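Spot intensities on a linear scale, already background-subtracted, had been written by Feature Extraction 10.7.1.1, per the file headers. A table for the whole series, also deposited by the authors, repeated these intensity values within a relative difference of 9.9e-05 for signals over 50. Labelling used oligo(dT)-primed cDNA, per the labels' protocols. From these deposited intensities log2(signal) minus log2 of the array's 75th percentile over spots that were not controls was computed. The 75th percentile ran from 796.2 to 1591, 59.47% to 66.96% of spots were well above background, and 0 were saturated. Spots flagged as outliers were dropped if the probe had another usable one, and replicate spots were averaged. Of 43603 probes, 34358 (78.8%) matched a TAIR10.1 gene through their accession, 29101 passed the filter (signal well above background on 3 or more arrays of any group), and each gene was represented by its brightest probe on average, which left 18309 of 25433 genes.

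Group means were fitted with limma 3.58.1 in R 4.3.3 to 14 arrays with 10 residual degrees of freedom, and the fit was tested on simulated data. The number of arrays limits the precision. Slide and scan day, from the file headers, were alternatives, as were scaling, filter, probe choice, background correction, and leaving out arrays. Named genes were the 9 genes, up to 4 called genes with the largest change from each context list and comparison together with genes of the members' families, and the 3 genes most like each of the 9 over the arrays. LRL2, LRL3, EXPA7, XTH12, MYB23 and the wild-type values of COW1 and ERU were given outside that rule after their values were seen. The 9 genes, the lists and the alternatives were chosen with earlier results of these data known.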

Additional observations from a re-analysis of the deposited data

Results flagged for a closer look

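In 2 of 18 sets of 4 wild-type arrays, 1 array lay far from the others of its group. COBL9 had a level of 0.80 on wild-type replicate 1 at low water potential, while the other 3 arrays ran from 0.02 to 0.12, and the gap took up 0.87 of the whole range. LRX2 had a level of 4.56 on wild-type control replicate 4, while the other 3 arrays ran from 5.40 to 5.46, and the gap took up 0.942 of the range. Chance flags about 1 in 20 such sets. The groups of 3 transgenic arrays were not examined in this way.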

How the results depend on the processing

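Of the 9 genes, LRX1 kept its direction and its call in the stress response of both genotypes under every alternative run, as did LRX2 in wild type and RHS13 in 35S:YFP-AFL1. With the slide as a fixed block, 2 root hair genes were called in each stress response (against 6 in 35S:YFP-AFL1 and 5 in wild type) and 6576 genes in the response of 35S:YFP-AFL1 (against 11587). For the genotype difference that block gave 59 genes and 0 of the 9 at low water potential (against 393 and 3) and 37 genes in control (against 4), and for the difference of the responses 22 genes (against 0). PRP1 then changed sign in wild type under stress to -0.803, COBL9 to -0.283 and RSL4 to 0.029 in 35S:YFP-AFL1 under stress, COBL9 to -0.39 between genotypes at low water potential, and COBL9 to -0.66 and RHD2 to -0.21 in the difference of the responses. With the slide as a random block (consensus correlation 0.442) 49 genes and 0 of the 9 were called at low water potential, and the values that changed sign were PRP1 at -0.038 in wild type, COBL9 at -0.10 between genotypes at low water potential, and COBL9 at -0.24 and RHD2 at -0.005 in the difference of the responses. Within scan day 2 the counts were 7686 genes and 3 of the 9 in wild type under stress, 24 genes between genotypes in control, 1 gene and 0 of the 9 at low water potential, and 12 genes for the difference of the responses, with PRP3 at 0.036 and RHS13 at 0.336 in wild type and COBL9 at -0.20 and RHD2 at -0.24 in the difference. Scan day as a block gave 253 genes at low water potential and 1 in control, with LRX1 at 0.070 and LRX2 at 0.11 in the difference. Same-numbered arrays of different groups had deviations correlated from -0.118 to 0.396, not over 0.1 in every pair. The numbers were therefore not used to pair the arrays in the main fit, but these values cannot exclude a pairing. The replicate block gave 2 genes in control, and 199 genes and 1 of the 9 at low water potential. A fit to only the groups compared gave 1 gene in control, and 1 gene and 0 of the 9 at low water potential. Quantile normalization gave 9 genes in control, and no filter 229 genes at low water potential. Scaling by the array median shifted the median of all genes under stress by 0.204 (35S:YFP-AFL1) and 0.16 (wild type), so that 58.1% and 56.8% of called genes were higher (6990 against 5040 lower, and 6776 against 5146 lower), where scaling by the 75th percentile gave 5498 higher against 6089 lower and 5621 against 6114, and put RSL4 at 0.17 in 35S:YFP-AFL1. The mean of probes put PRP3 at 0.064 in the difference of the responses. Normexp on median signals, chosen after seeing the data because the planned mean signal was not among the columns used and was not run, gave 599 genes and 5 of the 9 at low water potential, and put PRP1 at 0.01 and RSL4 at 0.19 in 35S:YFP-AFL1 under stress, LRX1 at 0.022 between genotypes in control and RHD2 at -0.11 in the difference. Leaving out both wild-type replicate 1 arrays, also chosen after seeing the data, gave 1404 genes and 5 of the 9 in control, 4159 genes and 6 of the 9 at low water potential and 1173 genes for the difference, with PRP1 at -0.12 in wild type under stress and COBL9 at -0.019, LRX1 at 0.112 and LRX2 at 0.055 between genotypes in control. Leaving out each array in turn, the counts ran from 2 to 540 genes and from 0 to 3 of the 9 between genotypes in control (highest without wild-type control replicate 1), from 12 to 3537 genes and from 0 to 6 of the 9 at low water potential (highest without wild-type stress replicate 1, with 0 of the 9 without 35S:YFP-AFL1 stress replicate 2 or 3), and from 0 to 756 genes for the difference. Values that changed sign among these ran from -0.17 to 0.38 for PRP1 and from -0.086 to 0.754 for RSL4 in wild type under stress, from -0.31 to 0.18 for RSL4 in 35S:YFP-AFL1 under stress, from -0.019 to 0.119 for COBL9, -0.271 to 0.112 for LRX1 and -0.243 to 0.071 for LRX2 between genotypes in control, and from -0.791 to 0.049 for RSL4 and -0.13 to 0.47 for RHD2 in the difference. The cause of these changes was not tested. Signals near background limit RSL4, PRP1, RHD2 and RHD6.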

Other observations

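Of 11 genes that decide which epidermal cells become hair cells, 1 rose and 7 fell under stress in 35S:YFP-AFL1 and in wild type. Over all genes 30.0% rose and 33.3% fell in 35S:YFP-AFL1, and 30.7% rose and 33.4% fell in wild type. CPC, ETC1 and WER were not called. The list had a median log2 change of -0.95 in 35S:YFP-AFL1 and -1.03 in wild type, against -0.04 and -0.03 over all genes. Blocking on slide, 0 rose and 4 fell in 35S:YFP-AFL1, where 15.9% of all genes rose and 20.1% fell. In wild type 0 rose and 7 fell with that block, where 22.0% of all genes rose and 25.6% fell. JKD, which acts in positional signalling, was at -2.50 in 35S:YFP-AFL1 and -1.96 in wild type, and SCM, the receptor kinase for the positional cue, at -1.94 and -1.45, and both kept these calls with the block. TRY, an inhibitor of the non-hair complex, was at least 1.70-fold lower in wild type. In 35S:YFP-AFL1 it was called lower with 0 of 3 stressed and 2 of 3 control arrays well above background. With the block its limma adjusted p was 0.151 in 35S:YFP-AFL1 and 0.0336 in wild type. GL3, a bHLH partner of the non-hair factors, rose by 1.26 in wild type (limma adjusted p = 0.00786). In 35S:YFP-AFL1 it was called higher (limma adjusted p = 0.000555) with 2 of 3 stressed and 0 of 3 control arrays well above background. Both calls were lost with the block (limma adjusted p = 0.465 in 35S:YFP-AFL1 and 0.231 in wild type). With that block MYB23, a MYB factor of the non-hair fate that was named after its values were seen, was higher by 1.44 in 35S:YFP-AFL1 at low water potential (limma adjusted p = 0.0311), where it was at 0.08 with all arrays (0.932) and at -0.37 without the replicate 1 arrays of wild type (0.092). None of the 11 was called between genotypes in the fit to all arrays, and 3 were lower at low water potential without the replicate 1 arrays. Under that omission 12.9% of all genes were lower there. WER, another MYB factor of the non-hair fate, was at -1.34 at low water potential with all arrays (limma adjusted p = 0.0512) and at -1.49 without the replicate 1 arrays (0.00855).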
